A study of Mus musculus with 3 samples.

Results

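The posterior *Hox* genes described here were *Hoxa9*, *Hoxa10*, *Hoxa11* and *Hoxa13* of the HoxA cluster and *Hoxd8*, *Hoxd9*, *Hoxd10*, *Hoxd11*, *Hoxd12* and *Hoxd13* of the HoxD cluster. They were chosen by name, and all 10 had a row among the 9781 gene rows used of a droplet single cell RNA-seq table. The table held 3 mouse libraries, 1 from the male urogenital sinus at E18.5 (UGS, which gives rise to the prostate before birth), 1 from prostate at postnatal day 14 and 1 from prostate at postnatal day 35. All 3 were labelled as normal tissue, and the labels gave no strain, genotype, sort or number of animals for any of them. The study's methods added a green fluorescent reporter to the genome used for counting, and a row named *EGFP* had UMIs in the table. Cell barcodes ended in 1, 2 or 3. Because no label tied these endings to an age, they are called barcode sets 1, 2 and 3, and a difference between sets is a difference between libraries with no direction in age. With 1 library per set there was no replicate and no test, and each interval given is a 95% interval that covers counting error only.

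*Hox* genes code for homeodomain transcription factors that give cells a position along the body axis. In each cluster the genes lie in the order in which they act, and those at the posterior end mark the hindmost trunk, the limbs and the urogenital tract. *Hoxa13* and *Hoxd13*, the last of their clusters, are known to be needed for the genitalia and the accessory sex glands, and *Hoxa10* and *Hoxa11* for the reproductive ducts. HOX proteins bind DNA together with cofactors of the PBX and MEIS families.

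In the GRCm38.p6 assembly of mm10, the 4 HoxA genes lay on the minus strand of chromosome 6 from 52223097 to 52260880, a span of 37.784 kb, and the 6 HoxD genes on the plus strand of chromosome 2 from 74668225 to 74707933, a span of 39.709 kb. *Hoxd10* (74684273 to 74695106) and *Hoxd11* (74679558 to 74687016) overlap on the same strand, so the split of UMIs between them is uncertain. *Hoxa11* overlaps the antisense gene *Hoxa11os* and LOC115490410, *Hoxd8* overlaps *Gm38462* and *Hoxa10* overlaps *Gm52902*. The 250 bases upstream of the annotated start are printed for *Hoxa13* and *Hoxd13*, whose rates in set 1 were highest in fibroblast-like and smooth muscle-like cells, and for *Hoxd8*, which was higher in endothelium-like than in fibroblast-like cells, each as 1 run from 5′ to 3′ on the gene's own strand from RefSeq. Every CG dinucleotide is in capitals.
Hoxa13, chr6:52260881-52261130, minus strand: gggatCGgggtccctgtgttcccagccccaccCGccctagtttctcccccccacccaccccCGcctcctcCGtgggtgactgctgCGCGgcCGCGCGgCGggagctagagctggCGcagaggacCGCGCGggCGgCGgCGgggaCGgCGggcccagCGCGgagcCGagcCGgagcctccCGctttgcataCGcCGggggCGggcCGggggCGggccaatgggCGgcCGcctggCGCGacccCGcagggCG
Hoxd13, chr2:74667975-74668224, plus strand: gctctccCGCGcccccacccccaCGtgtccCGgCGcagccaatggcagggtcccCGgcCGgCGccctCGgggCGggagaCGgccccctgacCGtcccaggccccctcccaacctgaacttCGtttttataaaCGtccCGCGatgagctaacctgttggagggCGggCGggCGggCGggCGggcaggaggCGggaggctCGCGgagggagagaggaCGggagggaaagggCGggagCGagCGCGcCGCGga
Hoxd8, chr2:74704365-74704614, plus strand: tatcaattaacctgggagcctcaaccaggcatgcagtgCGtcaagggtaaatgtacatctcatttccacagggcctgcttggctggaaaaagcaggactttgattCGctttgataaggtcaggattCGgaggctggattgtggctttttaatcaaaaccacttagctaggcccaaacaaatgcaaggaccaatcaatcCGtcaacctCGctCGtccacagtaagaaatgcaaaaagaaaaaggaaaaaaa
The *Hoxa13* stretch held 35 CG dinucleotides and the *Hoxd13* stretch 31, and among 32851 promoter stretches of this length 2.97% and 5.19% held as many. The *Hoxd8* stretch held 6, the median of all promoter stretches. These counts describe the letters of the reference only, since methylation was not measured.

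The 3 sets held 766, 5350 and 8360 kept cells with medians of 19357, 1738 and 1801 UMIs (unique molecular identifiers, each standing for 1 captured RNA molecule), so set 1 was read more than 10 times as deeply per cell. Sets 1 and 2 shared 1 cell barcode, sets 2 and 3 shared 13, and sets 1 and 3 shared 0. Rows with a RefSeq symbol lay on chromosomes 1 to 8, 10 and X, and the HoxB and HoxC clusters were not analysed here. Clustering without any *Hox* row gave 13 clusters, of which 12 were named after the marker genes they carried. Smooth muscle-like cells also carried 6 of the 8 fibroblast markers with a row and, of the skeletal muscle markers, *Tnnc2*. Their 10 leading genes held *Tnnc2*, *Tnnt1*, *Tnnt2* and *Actc1* beside *Actg2*, *Myl9*, *Tpm2*, *Des* and *Lmod1*. Cluster 10 stayed unnamed, because it carried all 11 epithelial markers with the leukocyte marker *Cd52* among its 10 leading genes. Markers of the seminal vesicle had no row. In fibroblast-like cells of set 1, 5 of 11 leukocyte, 1 of 10 endothelial and 0 of 7 smooth muscle markers were at 0.

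The 10 genes had 4887, 1774 and 4036 UMIs in sets 1, 2 and 3, or 238, 111 and 147 per 1000000 UMIs of all genes (CPM, the unit of every rate below). *Hoxd13* had the most UMIs, 1077, 553 and 1201 in the 3 sets, and *Hoxd12* the fewest in total, with 166, 12 and 18. In set 1 alone *Hoxd9* had fewer, 127. In fibroblast-like cells of set 1 the median cell had UMIs of 3 of the 10 genes and 10.1% of cells had none, while in sets 2 and 3 the median was 0 and 83.7% and 78.4% of cells had none. Depth and level cannot be told apart in these shares, and rates summed over the cells of a class are compared instead.

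Taken by class, *Hoxd13* was highest in the stroma. Its rate in fibroblast-like cells was 104.6 CPM (97.4 to 112), 40.7 CPM (33.8 to 48.7) and 76.9 CPM (68.4 to 86.0) in sets 1, 2 and 3, and in smooth muscle-like cells 73.4, 72.3 and 77.2 CPM. Epithelium-like cells had 24.2 CPM (20.5 to 28.4), 22.5 CPM (19.5 to 25.9) and 34.7 CPM (31.9 to 37.6). In each set the intervals of both stromal classes lay above that of the epithelium-like cells. Among 10 clusters with enough cells in set 1, cluster 1 (fibroblast-like) led with 159 CPM, followed by cluster 0 (smooth muscle-like) with 73.4 CPM and cluster 4 (epithelium-like) with 67.3 CPM, and the intervals of the latter 2 overlapped. Cluster 2, also fibroblast-like, had 40.1 CPM in set 1, below cluster 4, and the intervals did not overlap. Cluster 5, which held 95 of the 136 epithelium-like cells of set 1, had 12.6 CPM. In set 2 cluster 0 led with 72.3 CPM over cluster 1 with 53.2 CPM, and all 11 pairs of neighbours overlapped. The order in set 3 ran from 91.7 CPM in cluster 1 to 7.98 CPM in cluster 10, with 10 of 11 pairs of neighbours overlapping.

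*Hoxa13*, the paralog of *Hoxd13* on the other cluster, followed the same order of classes in set 1, with 81.4 CPM (75.1 to 88.2) in fibroblast-like, 72.8 CPM (60.6 to 86.8) in smooth muscle-like and 22.9 CPM (19.3 to 27.0) in epithelium-like cells. In sets 2 and 3 it was lower in the stroma, at 14.9 and 18.3 CPM among fibroblast-like and 25.7 and 33.5 CPM among smooth muscle-like cells, while epithelium-like cells had 14 and 12.9 CPM. The gap between fibroblast-like and epithelium-like cells seen in set 1 was therefore not resolved in set 2, where the intervals overlapped.

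*Hoxa10* had 75.6, 23.1 and 31.8 CPM in the fibroblast-like class of sets 1, 2 and 3 and 35.2, 9.87 and 17.3 CPM in the epithelium-like class, lower in the epithelium in every set. *Hoxa11* had 19.4, 2.71 and 10.7 CPM in fibroblast-like cells against 7.21, 1.38 and 1.69 CPM in epithelium-like cells. *Hoxd12* reached 16.1 CPM (13.4 to 19.3) among the fibroblast-like cells of set 1 and 1 and 2 UMIs in those of sets 2 and 3. Set 1 held 166 of its 196 UMIs in set 1.

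*Hoxa9* went the other way. Epithelium-like cells had 34.3 CPM (29.8 to 39.2), 11.4 CPM (9.24 to 13.8) and 22.8 CPM (20.5 to 25.2) in the 3 sets, and fibroblast-like cells 17.9 CPM (15.0 to 21.2), 3.05 CPM (1.40 to 5.80) and 7.38 CPM (4.94 to 10.6). In all 3 sets the epithelium-like interval lay above the fibroblast-like one. *Hoxa9* made up 34.4%, 31.0% and 41.6% of the UMIs of the 4 HoxA genes in epithelium-like cells, beside 9.21%, 6.98% and 10.8% in fibroblast-like cells and 7.56%, 7.49% and 4.81% in smooth muscle-like cells.

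**Figure D1:**
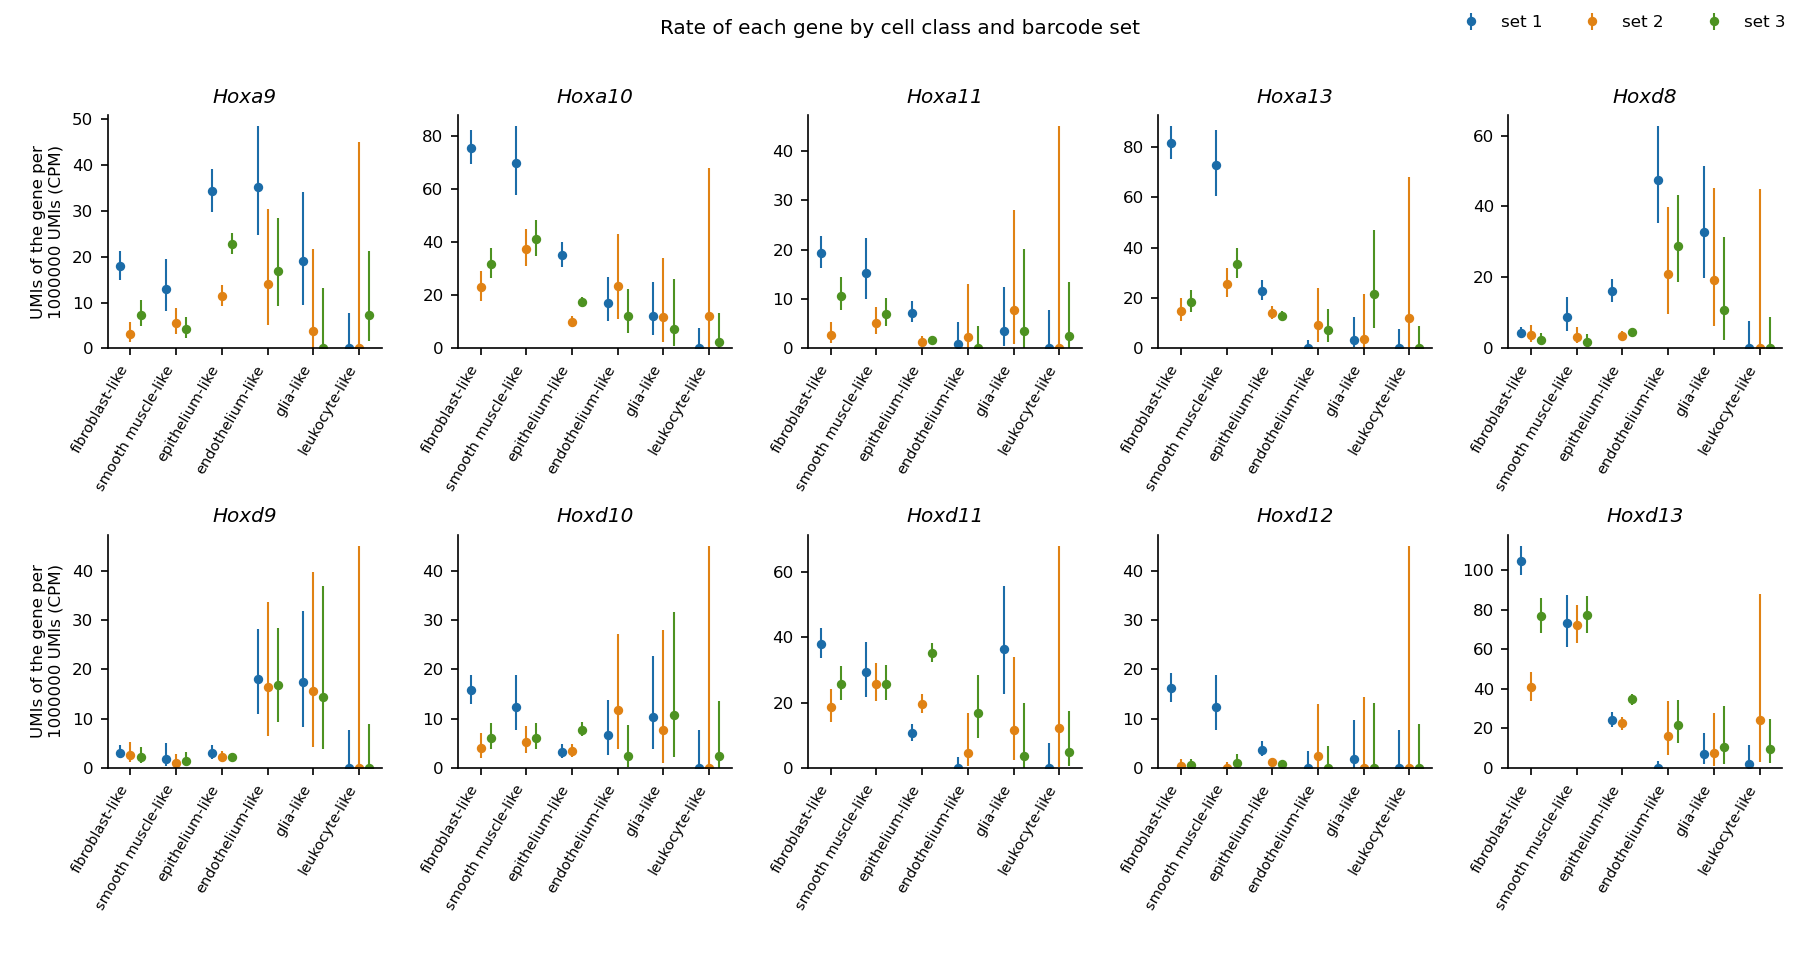
Rate of each of the 10 genes in CPM (linear axes from 0, scaled for each gene) in 6 cell classes, with 1 point per barcode set and bars for exact 95% Poisson intervals. *Hoxd13* and *Hoxa10* points sit higher in the fibroblast-like and smooth muscle-like classes than in the epithelium-like class, *Hoxa9* points do the reverse against fibroblast-like cells, and *Hoxd8* and *Hoxd9* are highest in endothelium-like and glia-like cells. The long bars of leukocyte-like cells in set 2 come from 25 cells.

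The question behind the comparison of epithelium with stroma was which members lean to which compartment, and it was put as the log2 ratio of the rates, with a member counted where it was at least 2-fold apart (log2 of 1 or more in size). Set against fibroblast-like cells of set 1, 7 of the 10 genes were at least 2-fold lower in the epithelium-like cells and 1 was at least 2-fold higher, where 24.1% and 15.5% of 7832 genes compared were as far apart in these directions. The 7 were *Hoxa10* (−1.10), *Hoxa11* (−1.43), *Hoxa13* (−1.83), *Hoxd10* (−2.29), *Hoxd11* (−1.85), *Hoxd12* (−2.13) and *Hoxd13* (−2.11). The gene higher in epithelium was *Hoxd8*, at 1.90 (1.31 to 2.52), and *Hoxa9* was just under 2-fold, at 0.94 (0.62 to 1.26). The median of the 10 log2 ratios was −1.63, beside −0.15 over all genes compared. With cells thinned to 900 UMIs the count of 8 became 3, and with libraries clustered without integration there were 0. That setting left 4 fibroblast-like cells in set 1 and put 481 cells of set 1 into 1 unnamed cluster of their own.

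In set 2 *Hoxa10* was lower (−1.22, −1.70 to −0.74) and *Hoxa9* higher (1.90, 0.91 to 3.07) by at least 2-fold, 2 of 10 genes beside 34.6% of all genes in either direction. In set 3 *Hoxa11* (−2.66) and *Hoxd13* (−1.15) were lower and *Hoxa9* (1.62) higher, 3 of 10 beside 42.1%. Thinned to 900 UMIs the counts were 3, 2 and 5 in sets 1, 2 and 3, which rest on 135 and 374 epithelium-like and fibroblast-like cells of set 1 and 2817 and 2300 of set 3 and so on unequal summed UMIs, and set 2 had 4 under 3 other settings. The counts are therefore not compared between sets, and the share of all genes was not computed under these other settings. In sets 2 and 3 the main shares were no larger than those of all genes, and only *Hoxa9* and *Hoxa10* had a ratio of the same sign with an interval clear of 0 in all 3 sets, together with *Hoxd13* (−0.86, −1.19 to −0.52 in set 2).

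*Hoxd11* changed sides between sets. Its rate in epithelium-like cells was 10.6 CPM (8.18 to 13.5), 19.5 CPM (16.7 to 22.7) and 35.3 CPM (32.5 to 38.2), while fibroblast-like cells had 38.1, 18.7 and 25.7 CPM. The log2 ratio of epithelium-like over fibroblast-like cells was −1.85 (−2.26 to −1.46) in set 1, 0.06 (−0.38 to 0.53) in set 2 and 0.46 (0.15 to 0.78) in set 3. *Hoxd10*, which overlaps it, went from −2.29 (−3.06 to −1.60) to −0.24 and 0.35, and the last 2 intervals included 0.

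The epithelium-like cells of the sets came from different clusters, in set 1 mostly from cluster 5 (95 of 136 cells) and in sets 2 and 3 from clusters 3, 4 and 5 together. In set 1 *Hoxd11* had 7.32 CPM in cluster 5 and 23.2 CPM in cluster 4, and 52.5 and 23.2 CPM in fibroblast-like clusters 1 and 2. The part of this mix of clusters in the ratios was not tested. Markers of other classes moved as well. The summed rate of the 8 fibroblast markers in epithelium-like cells was 445, 1825 and 1072 CPM in sets 1, 2 and 3, with 0 markers at 0 in any set, against 15252, 14901 and 16828 CPM in fibroblast-like cells. The 7 smooth muscle markers summed to 346, 2435 and 1257 CPM there, again with none at 0. Their part in the ratios of sets 2 and 3 was not tested.

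**Figure D2:**
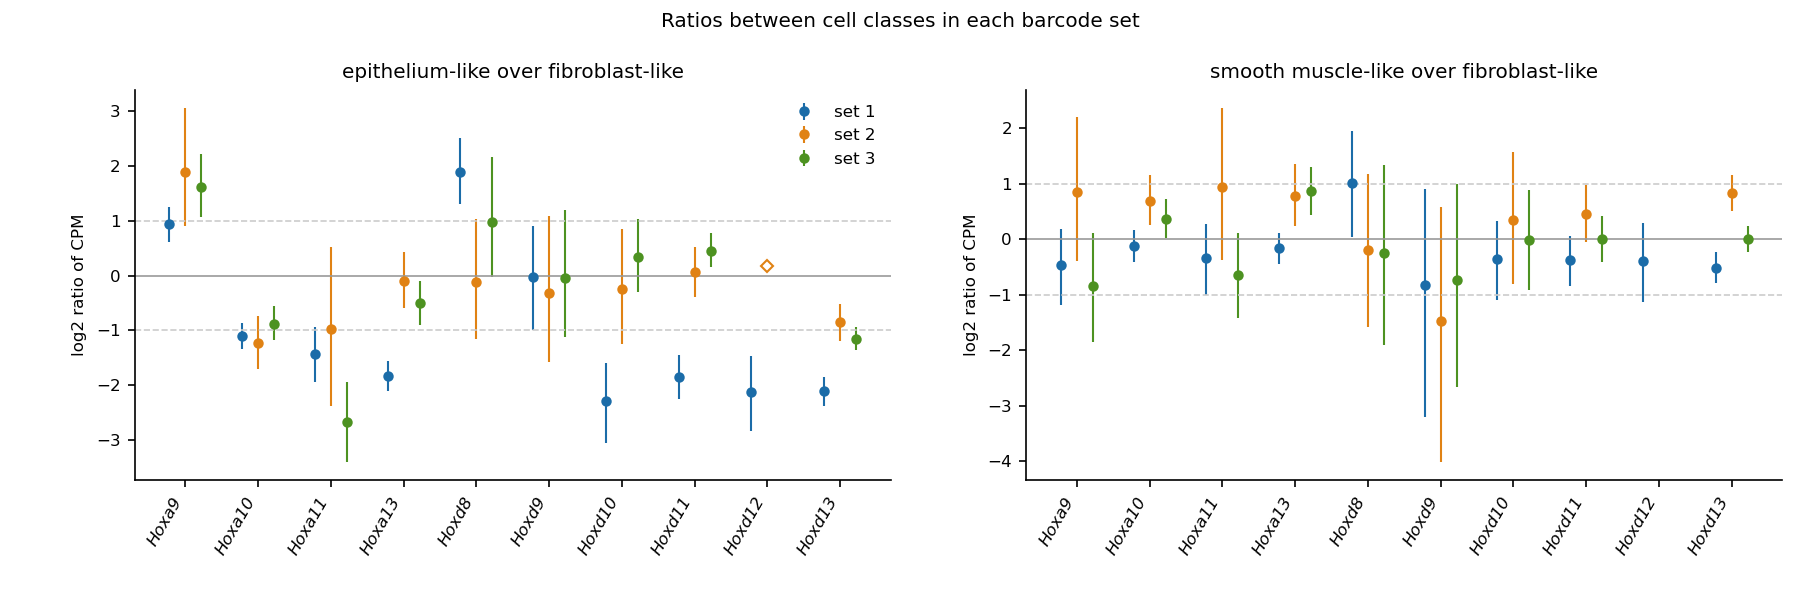
Log2 ratio of CPM of each gene, epithelium-like over fibroblast-like cells (left) and smooth muscle-like over fibroblast-like cells (right), by barcode set with 95% counting intervals; dashed lines mark 2-fold, and the open diamond marks a ratio with 1 UMI counted as 3. On the left the set 1 points of *Hoxd10* to *Hoxd13* lie between −1.85 and −2.29, well below those of sets 2 and 3 for *Hoxd10* and *Hoxd11*, while all *Hoxa9* points lie above 0.

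Between the 2 main stromal classes the counts were near or under those of all genes. In set 1, 1 of 10 genes was at least 2-fold apart between smooth muscle-like and fibroblast-like cells (13.4% of all genes), *Hoxd8* at 1.02 (0.03 to 1.95). In set 2 it was 1 of the 9 genes with at least 10 UMIs (20.2% of all genes), *Hoxd9* at −1.47 on 3 and 8 UMIs with an interval that included 0 (−4.02 to 0.58). In set 3 it was 0 of 9 (29.4% of all genes). With cells classed one by one these counts were 4, 3 and 2, a setting for which the share of all genes was not computed. *Hoxd13* was lower in smooth muscle-like cells in set 1 (−0.51, −0.80 to −0.24), higher in set 2 (0.83, 0.50 to 1.16) and level in set 3 (0.01, −0.23 to 0.25), and *Hoxa13* was 0.78 and 0.87 higher in sets 2 and 3. Smooth muscle-like cells also differed between sets in their own markers, which summed to 4660 CPM in set 1 and 25966 and 25252 CPM in sets 2 and 3. The 8 fibroblast markers summed to 5191, 4954 and 3052 CPM in the same cells, more than their own markers in set 1, so the set 1 ratio is not a clear contrast of smooth muscle with fibroblasts.

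Within the fibroblast-like class, clusters 1 and 2 were compared after their values had been seen. In set 1 both rest on integration: without it 481 cells of that set formed 1 unnamed cluster and 4 were fibroblast-like. Cluster 1 was led by *Lamc3*, *Fgf21*, *Mmp2* and *Tmem119*, and cluster 2 by *Dpt*, *Ptx3*, *Sult1e1* and *Lum*. In set 1 *Hoxd13* had 159 CPM (146 to 173) in cluster 1 and 40.1 CPM (33.7 to 47.3) in cluster 2, and *Hoxa13* 134.7 CPM (123 to 147) and 25.2 CPM (20.2 to 31.1). Of the 10 genes, 9 were at least 2-fold higher in cluster 1, beside 20.1% of all genes, the exception being *Hoxd8* at 0.70 (−0.46 to 1.93), and *Hoxd9*, at 1.09 (−0.29 to 2.63), had an interval that included 0. The largest were *Hoxd12* (2.86), *Hoxa10* (2.48), *Hoxa13* (2.42) and *Hoxa9* (2.22). In sets 2 and 3 the gap was narrower, with *Hoxd13* at 0.73 (0.15 to 1.32) and 0.64 (0.29 to 1.01) and 0 of 5 and 1 of 7 compared genes at least 2-fold higher (5.43% and 6.52% of all genes).

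Among epithelium-like cells a like contrast, also picked after seeing values, ran between cluster 4, led by *Lamb3*, *Sfn*, *Lgals7* and *Serpinb5*, and cluster 5, led by *Asprv1*, *Clca1*, *Wfdc3* and *Tspan1*. *Hoxd13* had 67.3 CPM (53.7 to 83.3) in cluster 4 and 12.6 CPM (9.67 to 16.2) in cluster 5 of set 1, a log2 ratio of 2.42, and *Hoxd12* (3.39), *Hoxd10* (1.69) and *Hoxd11* (1.67) were also at least 2-fold higher, 4 of 10 genes beside 17.7% of all genes. *Hoxa9* was lower in cluster 4 (−0.72, −1.35 to −0.14). In sets 2 and 3 *Hoxd11* kept a ratio of 1.14 (0.60 to 1.71) and 1.20 (0.93 to 1.48), while *Hoxd13* was at 0.49 and 0.02. Of 8 and 10 genes compared there, 1 and 2 were at least 2-fold higher in cluster 4 (13.7% and 14.3% of all genes), the second gene in set 3 being *Hoxd10* at 1.03 (0.43 to 1.63). Cluster 4 also carried 5 smooth muscle markers, and their part in these ratios was not tested.

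**Figure D3:**
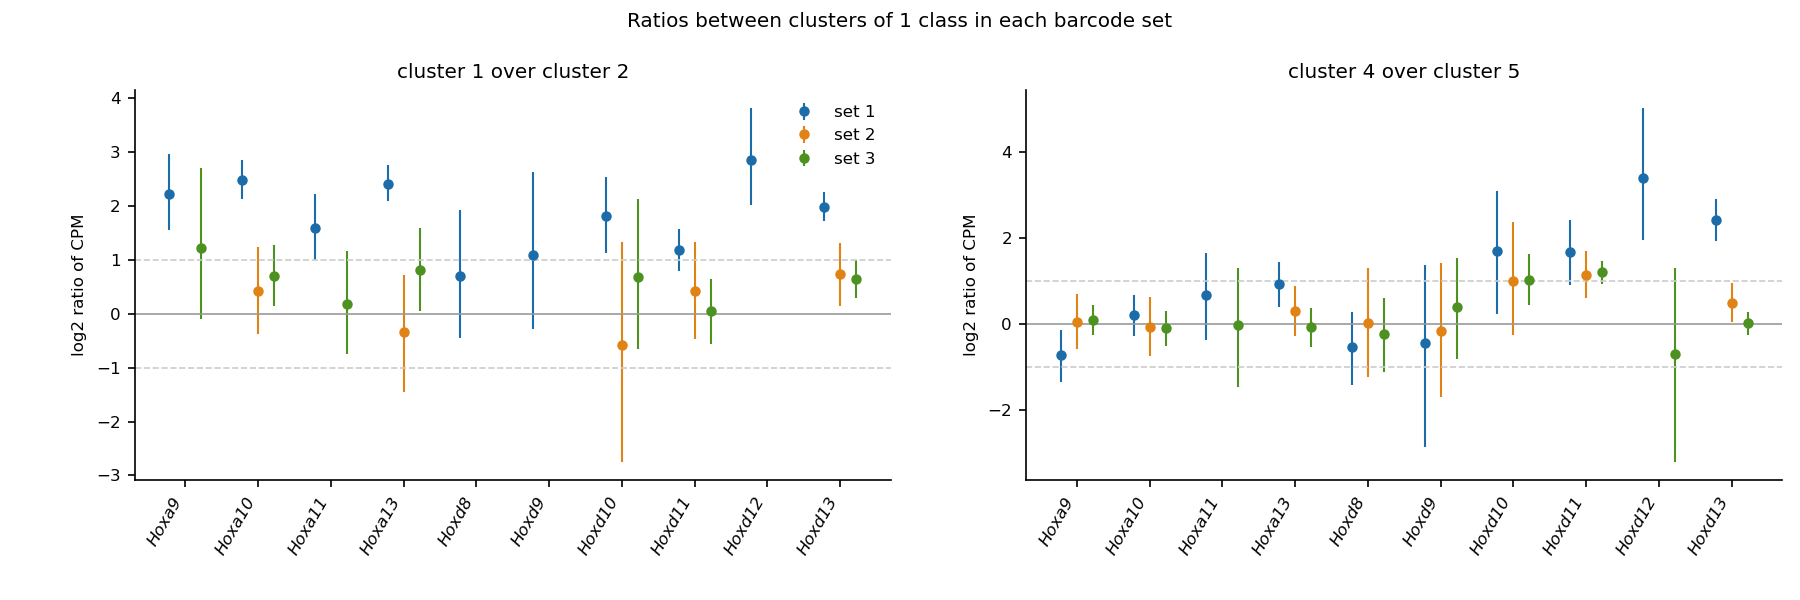
Log2 ratio of CPM of each gene between clusters of 1 class, cluster 1 over cluster 2 (fibroblast-like, left) and cluster 4 over cluster 5 (epithelium-like, right), by barcode set with 95% counting intervals and dashed lines at 2-fold. Set 1 points lie highest for most genes in the left panel and, among others, for *Hoxa13* and *Hoxd10* to *Hoxd13* in the right panel, where all 3 *Hoxd11* points lie above 1.

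Endothelium-like and glia-like cells each had another profile, compared here after their values had been seen. In endothelium-like cells *Hoxd8* had 47.5 CPM (35.2 to 62.6), 21.0 CPM (9.61 to 39.9) and 29.0 CPM (18.6 to 43.1) in sets 1, 2 and 3, against 4.34, 3.73 and 2.29 CPM in fibroblast-like cells. *Hoxd9* had 18, 16.4 and 16.9 CPM, against 3.12, 2.71 and 2.29 CPM. Both were higher in endothelium-like cells in all 3 sets, with log2 ratios of 3.45, 2.49 and 3.66 for *Hoxd8* and 2.53, 2.59 and 2.88 for *Hoxd9*, all with intervals clear of 0. *Hoxd8* was also higher in glia-like cells of set 1, with 32.9 CPM (19.8 to 51.5), where 2 members were at least 2-fold higher and 5 at least 2-fold lower than in fibroblast-like cells (24.3% of all genes in either direction). *Hoxd11*, with 0 UMIs in endothelium-like cells of set 1, had 36.4 CPM in glia-like cells, near the 38.1 CPM of fibroblast-like cells. In sets 2 and 3 glia-like cells had 19.4 and 10.8 CPM of *Hoxd8*, with UMIs in 5 of 188 and 3 of 235 cells.

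The posterior end of both clusters was close to empty in endothelium-like cells of set 1. There were 0 UMIs of *Hoxa13*, *Hoxd11*, *Hoxd12* and *Hoxd13* in 38 cells with a median of 20338 UMIs, and with 3 UMIs put in place of 0 the log2 ratios to fibroblast-like cells were at most −4.84, −3.74, −2.50 and −5.20. Of 10 members, 2 were at least 2-fold higher and 7 at least 2-fold lower, where 31.9% of all genes were apart in either direction. In sets 2 and 3 *Hoxd13* was present at 16.4 CPM (7 UMIs) and 21.7 CPM (18 UMIs), below fibroblast-like cells (−1.32 and −1.82), and of 8 and 9 members compared 4 and 3 were at least 2-fold higher and 2 and 4 lower (26.7% and 34.5% of all genes in either direction). Markers of other classes were also present there in sets 2 and 3. The 8 fibroblast markers summed to 144 CPM in endothelium-like cells of set 1, with 3 at 0, and to 1567 and 997 CPM in sets 2 and 3, with 0 at 0. The 7 smooth muscle markers summed to 362, 4223 and 1322 CPM, with 3, 0 and 0 at 0, and the 11 epithelial markers to 21.8, 1156 and 1990 CPM, with 4, 0 and 0 at 0. Their part in the *Hoxd13* UMIs was not tested.

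Read along the chromosome in set 1, the log2 ratios of endothelium-like over fibroblast-like cells were 2.81 for *Hoxa2*, 3.32 for *Hoxa3*, 6.09 for *Hoxa5*, 3.56 for *Hoxa7* and 0.97 for *Hoxa9*, and then −2.14 for *Hoxa10* and at most −4.84 for *Hoxa13*. On HoxD they were 2.22 for *Hoxd4*, 3.45 for *Hoxd8* and 2.53 for *Hoxd9*, and then −1.24 for *Hoxd10* and at most −5.20 for *Hoxd13*. *Hoxd1*, at the anterior end of HoxD, had 0 endothelium-like and 11 fibroblast-like UMIs, too few to give a direction. Epithelium-like cells had −0.02 (−2.07 to 1.95) for *Hoxa2* and went from 0.94 for *Hoxa9* to −1.10 for *Hoxa10*, and on HoxD they were near 0 at *Hoxd9* (−0.03, −0.99 to 0.91) before −2.29 at *Hoxd10*. *Evx1* and *Evx2*, the homeobox genes beyond the posterior ends, went with their neighbours at −2.59 and −2.70 in epithelium-like cells. In set 3 the endothelium-like ratios also went from 1.20 for *Hoxa9* to −1.40 for *Hoxa10*. They went from 2.88 for *Hoxd9* to −1.82 for *Hoxd13*, with 2 UMIs of *Hoxd10*, while in set 2 they went from 2.20 for *Hoxa9* to 0.02 for *Hoxa10* and −0.68 for *Hoxa13*, and from 2.59 for *Hoxd9* to 1.52 for *Hoxd10* and −1.32 for *Hoxd13*. The set 2 intervals of *Hoxa10*, *Hoxa13* and *Hoxd10* included 0.

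**Figure D4:**
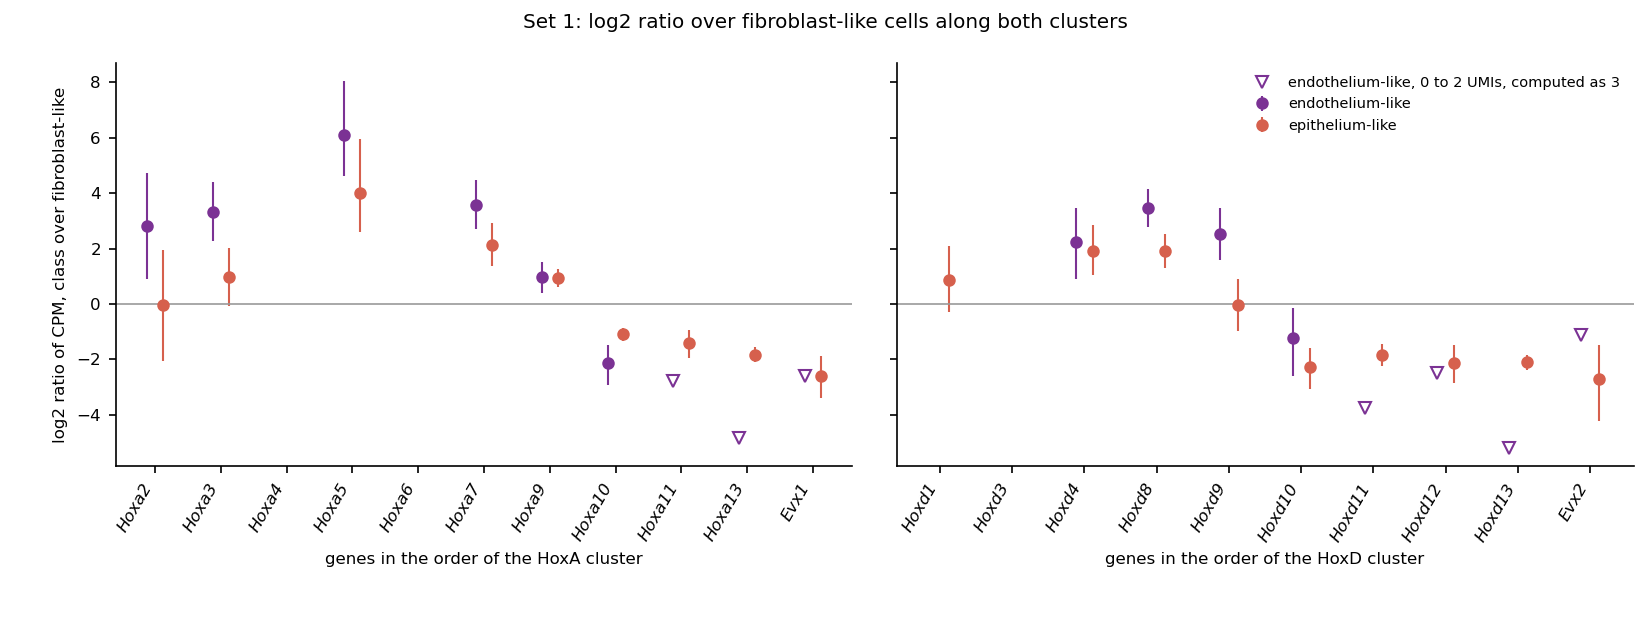
Log2 ratio of CPM over fibroblast-like cells in set 1 for coding genes of HoxA (left) and HoxD (right) in their order on the chromosome, anterior to posterior, for endothelium-like and epithelium-like cells with 95% counting intervals. Open triangles mark 0 to 2 endothelium-like UMIs counted as 3, and genes with too few UMIs have no point; endothelium-like points are above 0 up to *Hoxa9* and *Hoxd9* and below 0 from *Hoxa10* and *Hoxd10* on.

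The make-up of the HoxD UMIs gives the same contrast without a reference class. *Hoxd8* and *Hoxd9* together were 4.10%, 9.18% and 4.03% of the UMIs of the 6 HoxD genes in fibroblast-like cells of sets 1, 2 and 3, and 7.66%, 3.94% and 2.91% in smooth muscle-like cells. They were 90.8% (81.9 to 96.2, exact Clopper-Pearson interval), 51.6% and 52.8% in endothelium-like cells and 47.5%, 56.2% and 50.0% in glia-like cells. Glia-like cells also held 1634, 5988 and 5273 CPM of the 8 fibroblast markers, with 1, 1 and 0 at 0, and 116, 516 and 978 CPM of the 11 epithelial markers, with 0, 2 and 1 at 0, and their part in the make-up was not tested. Epithelium-like cells lay between in set 1, at 31.6% (26.9 to 36.5), and at 10.8% and 7.92% in sets 2 and 3. Within that class in set 1, cluster 5 had 46.8% (40.0 to 53.6) and cluster 4 11.5% (6.98 to 17.6).

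The unnamed cluster 10, led by *Wfdc15b*, *Folr1*, *Sptssb* and *Cd52*, had high shares of *Hoxd8* and *Hoxd9*. *Hoxd8* and *Hoxd9* were 98.4% of its 127 HoxD UMIs in set 1, 64.3% of 14 in set 2 (all 9 of them *Hoxd8*) and 73.4% of 79 in set 3. *Hoxd8* stood at 54.4 CPM (43.9 to 66.6), 31.2 CPM (14.3 to 59.3) and 23.9 CPM (16.2 to 34.2), and *Hoxd13* at 0.585 CPM on 1 UMI, 10.4 CPM on 3 and 7.98 CPM on 10. In cluster 10 of sets 1, 2 and 3 the fibroblast markers summed to 9.94, 753 and 342 CPM and the smooth muscle markers to 157, 1128 and 560 CPM. The leukocyte markers summed to 1.17, 2725 and 1995 CPM, and the part of these markers was not tested. Set against the named epithelium-like cells of set 1, in a comparison picked after seeing values, *Hoxd8* (1.75) and *Hoxd9* (2.62) were at least 2-fold higher and 7 members at least 2-fold lower, *Hoxa13* (−3.29) and *Hoxa9* (−2.70) among them, beside 19.2% of all genes apart in either direction. In set 3 *Hoxd8* (2.41) and *Hoxd9* (3.33) were again higher and 6 members lower (16.1% of all genes), and in set 2 *Hoxd8* was higher (3.18) and 1 member lower (12.7%).

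**Figure D5:**
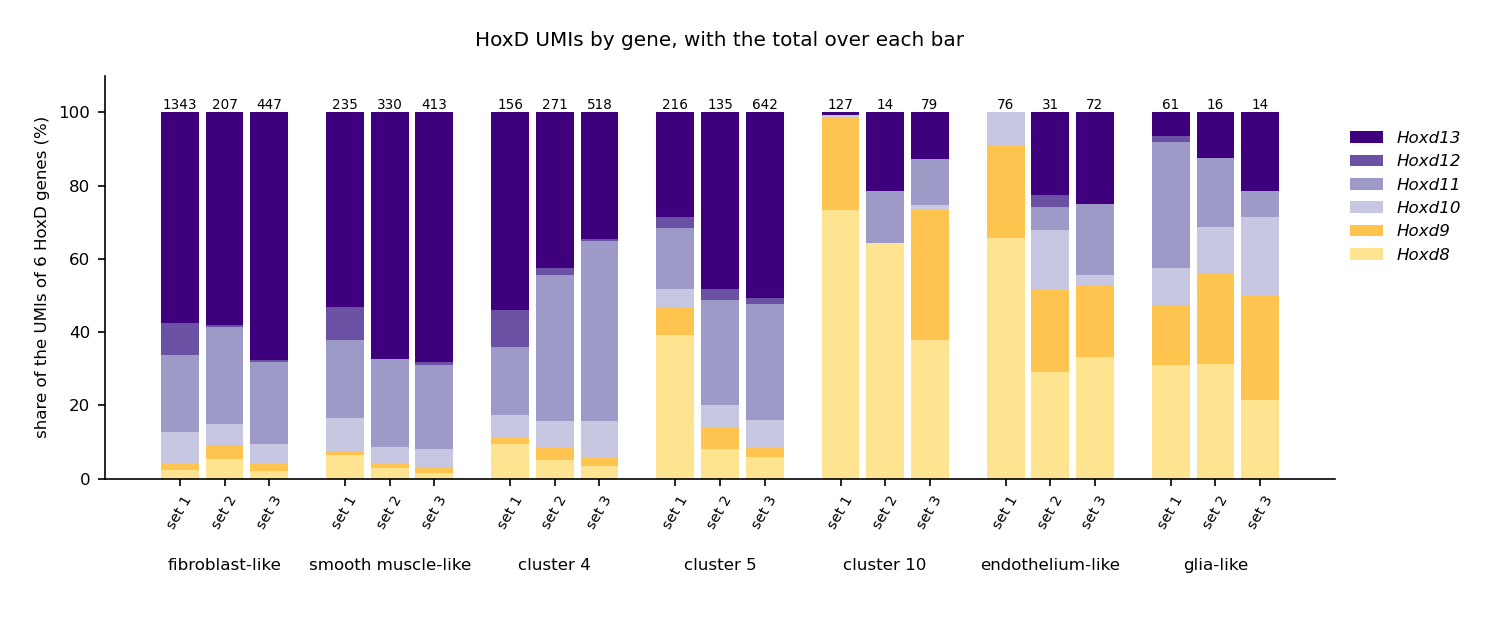
Share of each gene in the UMIs of the 6 HoxD genes, in percent from 0 to 100, for 3 classes, 2 epithelium-like clusters, the unnamed cluster 10 and glia-like cells in each barcode set, with the number of UMIs over each bar. Yellow tones (*Hoxd8* and *Hoxd9*) take 4.10% of the first fibroblast-like bar, 90.8% of the first endothelium-like bar and 98.4% of the first cluster 10 bar; bars of set 2 and 3 glia-like cells rest on 16 and 14 UMIs.

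Between libraries, in fibroblast-like cells, 8 of 10 genes were at least 2-fold lower in set 2 than in set 1, beside 25.1% of all genes, and 5 of 10 in set 3, beside 34.5%. The median log2 ratios of the members were −1.83 and −1.08, where all genes had −0.33 and −0.61. Without integration, on those 4 cells of set 1, both counts were 0. In these cells the 7 smooth muscle markers summed to 949.9, 3562 and 1445 CPM in sets 1, 2 and 3 and the 11 epithelial markers to 51.2, 286 and 86.5 CPM, with none at 0, and their part in the counts was not tested. *Hoxd12* had 119 UMIs in set 1 and 1 and 2 UMIs in sets 2 and 3. *Hoxa13* was at −2.45 (−2.92 to −2.0) and −2.15 (−2.53 to −1.80), and *Hoxd13* at −1.36 (−1.65 to −1.08) and −0.44 (−0.64 to −0.25). In cluster 1 *Hoxa13* was at −3.50 and −2.54 and 8 of 10 genes were at least 2-fold lower in each of sets 2 and 3 (30.2% and 41.2% of all genes). In cluster 2 *Hoxa13* was at −0.75 and −0.93 and 2 and 1 of 10 genes were at least 2-fold apart, all lower (29.9% and 36.4% of all genes in either direction). In smooth muscle-like cells 6 of 9 genes were at least 2-fold lower in each of sets 2 and 3 (24.5% and 31.5% of all genes), and *Hoxd13* was at −0.02 (−0.35 to 0.31) and 0.07 (−0.24 to 0.39). Over the alternative settings these *Hoxd13* ratios ranged from −0.81 (thinned to 900 UMIs) to 1.98 (cells classed one by one) and from −0.67 to 2.02. The 11 epithelial markers summed to 20.6, 240 and 128 CPM in these cells, with 3, 0 and 0 at 0, and the part of these and of the fibroblast markers was not tested. With clusters cut at resolution 1.0, which left 42 smooth muscle-like cells in set 1, the counts of 6 became 0 and 2. Of those 42 cells, 26 were in a cluster with the skeletal muscle genes *Myog*, *Myod1*, *Actc1*, *Tnnt1* and *Mylpf* among its 10 leading genes and *Des* and *Myl9* of the smooth muscle markers.

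In epithelium-like cells of set 2, 5 of 10 genes were at least 2-fold lower than in set 1 (25.9% of all genes), *Hoxa9* (−1.59), *Hoxa10* (−1.84), *Hoxa11* (−2.39), *Hoxd8* (−2.23) and *Hoxd12* (−1.68). In set 3, 4 were lower (27.3%) and 2 higher (9.09%), the latter *Hoxd10* at 1.28 (0.59 to 2.04) and *Hoxd11* at 1.74 (1.37 to 2.13). Thinned to 900 UMIs, 3 and 2 genes were at least 2-fold apart in either direction in sets 2 and 3, and the share of all genes was not computed there. *Hoxd13* was at −0.10 (−0.42 to 0.21) and 0.52 (0.26 to 0.79). Inside the class it went down in cluster 4 (−1.35 and −0.88) and up in cluster 5 (0.57 and 1.51). Between sets 2 and 3, 2 genes were at least 2-fold apart in epithelium-like cells (17.6% of all genes), 2 in fibroblast-like cells (25.4%) and 0 in smooth muscle-like cells (22% of all genes), and those 4 ratios were higher in set 3.

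The share of cells with a UMI depends on depth and on free RNA, so it was set beside leukocyte-like cells, a class taken to lack *Hoxd13*. Before thinning, 63.0%, 6.41% and 10.4% of fibroblast-like cells had a *Hoxd13* UMI in sets 1, 2 and 3 (median depth 15696.5, 1296 and 1335.5 UMIs), against 2.63% (1 of 38 cells), 8% (2 of 25) and 2.26% (4 of 177) of leukocyte-like cells (median depth 10313, 2027 and 2003 UMIs). With every cell thinned to 900 UMIs 12% of fibroblast-like cells of set 1 had one (8.91 to 15.8), as did 3.54% (2.69 to 4.57) and 7.17% (6.15 to 8.31) in sets 2 and 3. Smooth muscle-like cells had 8.86%, 6.04% and 6.95% and epithelium-like cells 4.44%, 1.89% and 2.73%. Leukocyte-like cells had 0% of 38, 0% of 23 and 0.595% of 168, where 0 of 38 cells has an exact upper limit of 9.25% and 3 of 38 cells, the limit that a count of 0 allows, would be 7.89%. After thinning, the intervals of the fibroblast-like and leukocyte-like cells (0.0151 to 3.27) did not overlap in set 3 and overlapped in sets 1 and 2. At 900 UMIs the upper limit of the leukocyte-like cells lay above the share of epithelium-like cells in all 3 sets. *Hoxd13* in single epithelium-like cells was thus not resolved from background at that depth. Before thinning, 36.8% (28.7 to 45.5), 11.3% (9.76 to 13.0) and 14.9% (13.6 to 16.3) of epithelium-like cells had a *Hoxd13* UMI, at deeper medians of 38173, 4056 and 3560.5 UMIs. Those intervals lay above the unthinned leukocyte-like ones in sets 1 and 3 (0.0666 to 13.8 and 0.619 to 5.68) and overlapped in set 2. The part of depth was not tested. In set 2 the unthinned share of fibroblast-like cells was not above that of leukocyte-like cells and is not read as expression. Thinning left out 7, 342 and 693 cells of the 3 sets. Leukocyte-like cells of set 2 also had summed rates of 6526 CPM over the smooth muscle markers and 3391 CPM over the epithelial markers, against 87.6 and 58.4 CPM in set 1.

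Detection of *Hoxa13* and *Hoxd13* in the same cell was counted in each class. In 376 fibroblast-like cells of set 1, 173 had UMIs of both, 40 of *Hoxa13* only, 64 of *Hoxd13* only and 99 of neither, so 81.2% of cells with *Hoxa13* had *Hoxd13* and 39.3% of cells without it. Cells with both had a median of 14917 UMIs and cells with neither 22176. Within cluster 1 the shares were 87.9% and 61.1% and within cluster 2 58.1% and 26.7%, where cells with both had a median of 15731 UMIs and those with neither 26866. In cluster 1 cells with both were deeper, with 14803.5 UMIs against 5882 in cells with neither, and so were those of the smooth muscle-like (22456.5 against 10629) and epithelium-like (49470 against 30427) classes of set 1. The part of depth in these shares was not tested. In sets 2 and 3, 4 and 7 fibroblast-like cells had both, and in set 3 the shares were 10.0% of cells with *Hoxa13* and 10.5% of cells without it. In smooth muscle-like cells of set 3 they were 8.70% and 13.2%, and in cluster 4 of set 3 12.3% and 19.0%, the reverse of set 1. In epithelium-like cells of set 3, 48 had both and the shares were 24.9% and 14.2%, with medians of 15852.5 UMIs in cells with both and 3123 in cells with neither.

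In fibroblast-like cells of set 1, split after the data had been seen, *Hoxd13* had 106.8 CPM in 225 cells with an *EGFP* UMI and 100.02 CPM in 151 cells without (log2 ratio 0.09, −0.13 to 0.32), and *Hoxa13* had 82.6 and 79.0 CPM (0.06, −0.19 to 0.32). Other members were apart in single clusters, also with these cells split in this way after the data had been seen, with intervals clear of 0 for *Hoxa10* (−0.36, −0.65 to −0.07) and *Hoxd11* (−0.50, −0.94 to −0.05) in cluster 1. *Hoxa9* was lower in cells with an *EGFP* UMI in cluster 4 (−1.23, −2.47 to −0.05) and higher in cluster 5 (0.72, 0.19 to 1.29). Cells with an *EGFP* UMI were deeper, with medians of 38088 against 24220 UMIs in cluster 4, 55541 against 32946 in cluster 5 and 14418 against 13554.5 in cluster 1, and the part of depth or of free *EGFP* RNA was not tested.

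Other genes of both clusters, a list of 23 with a row each that takes in the noncoding genes between the coding ones, were compared in the same way. In set 1, 8 of the 15 with at least 10 UMIs were at least 2-fold higher in the epithelium-like class than in the fibroblast-like class and 4 lower (15.5% and 24.1% of all genes), with a median log2 ratio of 1.02. The 8 included *Hoxa5* (4.02), *Hoxa7* (2.12), *Hoxd4* (1.92), *Hoxd3os1* (3.37) and *Hotairm1* (2.16), a noncoding RNA of the anterior end of HoxA. The 4 lower ones lay at the posterior ends, *Evx1* (−2.59), *Evx2* (−2.70), *Evx1os* (−2.30) and *Hottip* (−1.52), a noncoding RNA next to *Hoxa13*. In set 2, where 12 of the 23 had 0 UMIs, 3 of 6 were higher and 1 lower (34.6% of all genes in either direction) with a median of 0.99, and in set 3, 2 of 11 were higher and 3 lower, beside 42.1% of all genes in either direction, with a median of −0.27.

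Among genes of the PBX and MEIS cofactor families, *Meis2* was at −0.09, −2.20 and −2.58 for epithelium-like over fibroblast-like cells of sets 1, 2 and 3. *Meis3* was at −0.69, −1.93 and −1.72 and *Pbx3* at −0.09, −1.42 and −1.02. *Pbx4* was at −1.58 in set 1 and −2.73 in set 3, and had 1 UMI in epithelium-like and 9 in fibroblast-like cells of set 2. Of the genes that flank both clusters, 8 of 11 listed had a row, and in set 1 *Skap2* (1.46) was at least 2-fold higher in epithelium-like cells and *Jazf1* (−1.61) at least 2-fold lower. *Mtx2*, next to HoxD, was at 0.98, 1.31 and 1.84, opposite in sign to *Hoxd13* in every set.

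Genes most like the 3 members with the most UMIs were sought among 7154 genes outside both clusters, by the correlation of log2(CPM + 10) over 21 points of class and set that share libraries and differ in depth. For *Hoxd13* they were *Trim63* (Pearson r = 0.86) and *Nfix* (0.85), for *Hoxa10* *Gata2* (0.91), *Meis2* (0.89) and *Tbx3* (0.86), and for *Hoxa13* *Pcdh11x* (0.88), *Sulf1* (0.85) and *Egr4* (0.83). *Hoxd13* had r = 0.82 with *Hoxa13*, 0.80 with *Hoxa10* and 0.71 with *Hoxd11*, and −0.02 with *Hoxa9*, −0.40 with *Hoxd8* and −0.45 with *Hoxd9*. These correlations across points are given as a description.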

How the data were processed

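Droplet 3′ single cell RNA-seq was done by the authors on 3 mouse libraries, 1 per group, and counted with Cell Ranger 3.1.0 (submitters' processing notes) on mm10. Labels and methods name different kit versions. The deposited values are natural log values, ln(1 + 10000 × UMIs / cell total), not the counts foreseen. Whole UMIs and totals were recovered from them: 0 of 11120293 values above 0 lay further than 0.05 from a whole UMI (largest distance 9.4e-07). Of 9784 rows, 1 filled for only 7365 of 14573 cells and 2 sharing a name were left out, and the table was held only in part. Cells with under 200 genes were left out (97, all in set 3). Within a set, rows found in 1 or 2 cells were rarer than rows in 3 or 4 (205 and 564, 40 and 390, 44 and 301 rows), while 15, 1151 and 716 rows were at 0, so a 0 may hide up to 2 cells.

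Clustering followed the study in Seurat 5.3.0 (R 4.3.3, Matrix 1.6.5), with 20 integration dimensions, 30 principal components, resolution 0.5, cell cycle scores regressed out and all genes of both clusters and *EGFP* kept out of 1997 features. The rule for naming clusters was set after clustering. A marker was carried when 10% of cells had a UMI at 2 times the median cluster's rate or more, and a name needed 3 carried markers that were not outnumbered among the 10 leading genes. Doublet scores (scanpy 1.11.5) passed the automatic threshold in 3, 0 and 0 cells, and no cell was removed.

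Rates are summed UMIs over all UMIs of the cells, with exact Poisson intervals, and shares have exact Clopper-Pearson intervals. Ratios have intervals from the binomial split (scipy 1.17.1), needed at least 10 UMIs over both sides and took sums of 0 to 2 UMIs as 3, with no direction where that made the raised side the higher. The scripts were tested on simulated data. Members and lists were chosen with earlier results of these data known. Named genes were the 10 members, the listed cluster, flanking and cofactor genes, and the 3 genes most like each of the 3 members with the most UMIs. Comparisons between clusters, of endothelium-like and glia-like cells and of *EGFP* were added after values had been seen. Results that need certain items are not reported here.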

Additional observations from a re-analysis of the deposited data

Results flagged for a closer look

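A pair of members had log2 ratios of opposite sign in different libraries, with both intervals clear of 0. *Hoxd11* in epithelium-like over fibroblast-like cells was at −1.85 in set 1 and 0.46 in set 3. *Hoxd13* in smooth muscle-like over fibroblast-like cells was at −0.51 in set 1 and 0.83 in set 2. With 1 library per set neither difference was tested, nor was the part of the mix of clusters within a class.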

How the results depend on the processing

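No paired analysis was possible because there was 1 library per group, so no replicate could be left out either. Of 150 alternative counts of members at least 2-fold apart, 108 stayed within 1.5 times the main count. Of 1312 alternative log2 ratios, 1202 stayed within the counting interval of the main ratio. They include all 147 with no minimum of UMIs, a setting that cannot change a ratio, and all 147 with 0.5 UMI added. After thinning 33 of 94 moved, with cells classed one by one 26 of 136 (and 1 reversed) and without integration 13 of 86. At resolution 1.0, 12 of 141 moved and 2 reversed. None of 142 moved without the highest doublet scores and none of 140 without the mitotic cluster. The log2 ratio of Hoxa9 between set 2 and set 1 within smooth muscle-like cells turned to 0.16 at resolution 1.0. The log2 ratio of Hoxa9 between set 3 and set 1 within smooth muscle-like cells turned to 0.41 at resolution 1.0 and to 0.0371 with cells classed one by one. At resolution 1.0, 26 of the 42 smooth muscle-like cells of set 1 were in a cluster led by skeletal muscle genes such as Myog and Myod1, against its name. Hoxd13 there moved from −0.02 and 0.07 to −0.81 and −0.67 after thinning and to 1.98 and 2.02 where cells were classed singly. Counts that moved are given with the main count in brackets. The share of all genes was computed for the main setting only, so no alternative count has one beside it. For epithelium-like over fibroblast-like cells, thinning to 900 UMIs gave 3 (8) in set 1 and 5 (3) in set 3, clustering without integration gave 0 (8) in set 1, and 0.5 UMI added in place of the floor, the mean of rates per cell and resolution 1.0 each gave 4 (2) in set 2. For smooth muscle-like over fibroblast-like cells, set 1 (1) gave 4 with cells classed one by one, 3 at resolution 1.0, 2 with the mean of rates, and 0 after thinning and without integration. Set 2 (1) gave 3 with cells classed singly or at least 500 genes per cell, and 0 without the mitotic cluster, at resolution 1.0 and without integration. Set 3 (0) gave 2 with cells classed singly or at least 500 genes, and 1 with the mean of rates, at resolution 1.0 and without the highest doublet scores. For fibroblast-like cells without integration, set 2 over set 1 gave 0 (8) and set 3 over set 1 gave 0 (5). For epithelium-like cells, thinning gave 3 (5) for set 2 over set 1, 2 (6) for set 3 over set 1 and 4 (2) for set 3 over set 2, and the last gave 1 (2) with 0.5 UMI added, at least 500 genes, cells classed one by one, resolution 1.0 and the highest doublet scores removed. For smooth muscle-like cells, set 2 over set 1 (6) gave 3 with cells classed one by one, 0 at resolution 1.0, and 1 after thinning and without integration, and set 3 over set 1 (6) gave 2, 2, 1 and 1. Set 3 over set 2 (0) gave 1 at resolution 1.0, with cells classed singly and with at least 500 genes. Without integration 481 cells of set 1 formed 1 unnamed cluster. Only 4 fibroblast-like and 5 smooth muscle-like cells of set 1 were left there, and thinning leaves fewer UMIs. Otherwise the cause was not tested. Median depth was 19357 UMIs per cell in set 1 and 1738 and 1801 in sets 2 and 3.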
